A study of Homo sapiens with 8 samples.

Results

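The genes described here are 43 genes of blood coagulation and complement, the plasma protein cascades that clot blood and tag microbes, together with their inhibitors. They are the 43 of 58735 genes in the deposited table whose symbol is on a fixed list of such factors; the fibrinogen chains were not on it. The cells were HepG2, an established human liver cancer line with hepatocyte features, kept in DMEM with fetal bovine serum. The control group was 4 libraries of cells that had received a control lentivirus (genotype WT, library names pLV_EGFP_NC), and the other group was 4 libraries of cells infected with a lentivirus for DNMT3A overexpression (pLV_EGFP_DN); DNMT3A is a de novo DNA methyltransferase. Neither the promoter of the transgene nor whether the infected cells were 1 clone or a pool is given in the sources used here. Nothing in the labels says that libraries came from separate cultures; p-values then reflect only how these libraries vary, and that variation may be technical. In bulk RNA a lower level in every cell and fewer cells with the transcript cannot be told apart.

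Most of these proteins are made by hepatocytes and secreted into plasma. Coagulation proceeds through serine protease zymogens that activate each other on membranes, several of which need a vitamin K-dependent modification to bind calcium, and it is held back by serpins, the protein C system and tissue factor pathway inhibitor. Complement starts from antibody or sugar recognition or from spontaneous turnover of C3, converges on C3 cleavage and ends in a membrane pore, and host cells carry proteins that switch it off.

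Values are FPKM, fragments scaled to the length of the gene and the size of the library, so levels of different genes are compared per length. The libraries held 15911019 to 17677093 recovered reads each. A log2 fold change is the DNMT3A mean less the control mean of log2(FPKM + 1), a scale that shrinks the change of low genes. A gene is called changed where limma's p-value, adjusted by Benjamini-Hochberg over all 11620 genes whose mean FPKM reached 1, is under 0.05. DNMT3A itself was 3.65 ± 0.178 FPKM across controls and 8.93 ± 1.33 FPKM across DNMT3A libraries (SD, n = 4 per group). All 10 hepatocyte markers were above the FPKM filter, and 2 of them rose by more on the log2 scale than any tested coagulation or complement gene. AFP, the fetal counterpart of albumin, went from 370 ± 9.28 to 1143 ± 192 FPKM (log2 1.61, limma adjusted p = 4.8e-05), and TTR, the carrier transthyretin, from 6.04 ± 1.24 to 17.1 ± 1.30 FPKM (log2 1.38, limma adjusted p = 8.7e-05). The other 8 did not pass the test, among them ALB at 6188 ± 212 and 6252 ± 913 FPKM, and the list summed to 10379 to 11082 FPKM in the control group and 9837 to 12604 FPKM with DNMT3A. The part of these markers in the results was not tested. Of 7 blood and macrophage markers PTPRC, CD163, C1QA and HBB were at 0 in all 8 libraries. CD14 was lower with DNMT3A, at 1.34 ± 0.235 FPKM across controls and 0.652 ± 0.0290 FPKM across DNMT3A libraries. Its groups did not overlap, but its mean of 0.995 FPKM was under the filter and it was not tested. LYZ rose from 234 ± 32.6 to 325 ± 13.9 FPKM (limma adjusted p = 0.00812). LYZ carried nearly all of the list's summed level, 198 to 264 FPKM across controls and 314 to 345 FPKM across DNMT3A libraries. The part of LYZ or CD14 in the results was not tested. Endothelial markers summed to 0.442 to 0.553 FPKM across controls and 0.577 to 0.685 FPKM across DNMT3A libraries, with KDR and CLEC4G at 0. Fibroblast markers summed to 8.18 to 10.1 and 6.20 to 10.5 FPKM, nearly all of it ACTA2, with LUM at 0.

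Of the 43 genes 38 passed the FPKM filter and were tested. The test called 7 of them higher and 3 lower, and 28 did not pass it. The called share was 26.3%, beside 20.6% of all tested genes, so the set as a whole was called about as often as any other gene. The median log2 fold change was 0.00 for the 38 genes and -0.01 for all tested genes. CLU, A2M, TFPI, CFB, VTN, CD55 and C4BPB rose (7 of 38 genes, beside 9.93% of all tested genes that rose), and C1S, F7 and PROC fell (3 of 38, beside 10.6%). None of the 38 was called with a log2 fold change of 1 or more in size, beside 0.706% of all tested genes. For 13 of the 38 genes every library of one group lay above every library of the other, beside 25.1% of all tested genes. The calls of F7, C1S, TFPI, A2M and CLU held under all 15 alternative settings, and the other 5 were lost under at least 1.

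**Figure D1:**
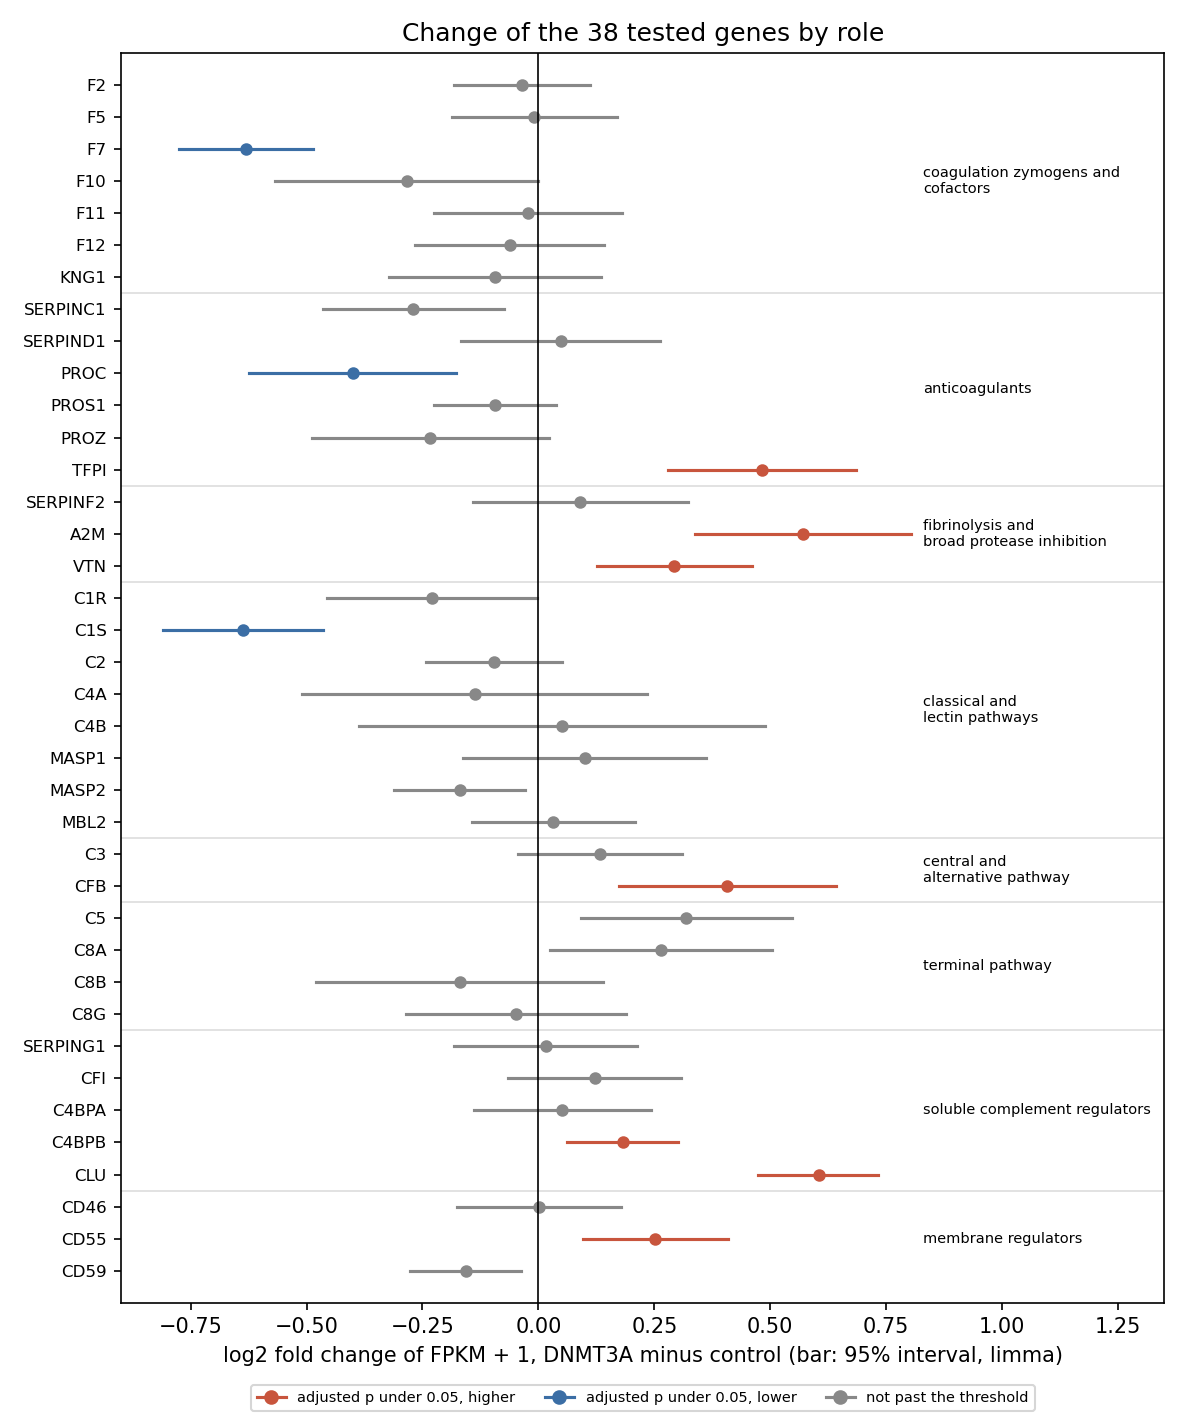
Log2 fold change (x axis, on the log2(FPKM + 1) scale, above 0 where DNMT3A is higher) of the 38 tested genes, grouped by role; bars are limma's 95% intervals and colours mark the genes past the threshold. The 7 genes that rose lie between 0.18 and 0.60 and the 3 that fell between -0.64 and -0.40.

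The upstream sequences of 5 genes are shown because DNMT3A methylates cytosines that are followed by guanine, and these stretches differ in how many such CpG pairs they hold. F7, F10 and PROZ lie close together on chromosome 13, where F7 fell and the others did not pass the test. Among the 43 genes PROC is the other gene of the clotting system that fell. C4BPB is a gene that rose. The same stretch holds more CpG in CD55 (8) and CFB (6), which also rose, and 1 in TFPI and 2 in VTN. These 4 overlap annotated exons by 66 to 150 bases and are not printed. The lines below thus do not show that genes that rose hold fewer CpG. Of the printed stretches that of F7 overlaps annotated exons by 3 bases and that of C4BPB by 18. Each line is the 150 bases before a RefSeq transcript start (GRCh38.p14, 5′ to 3′ along the gene), with each CpG in capitals. The F7 stretch is chr13:113105641-113105790 (plus strand) and holds 3 CpG. The F10 stretch is chr13:113122649-113122798 (plus strand) with 5 CpG. That of PROZ is chr13:113158498-113158647 (plus strand) with 5 CpG. PROC is given at chr2:127418277-127418426 (plus strand) with 3 CpG, and C4BPB at chr1:207088710-207088859 (plus strand) with 1 CpG. RefSeq lists further starts for PROC and C4BPB.
F7: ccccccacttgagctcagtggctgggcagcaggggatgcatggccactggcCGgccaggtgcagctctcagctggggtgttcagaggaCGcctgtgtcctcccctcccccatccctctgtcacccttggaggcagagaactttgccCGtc
F10: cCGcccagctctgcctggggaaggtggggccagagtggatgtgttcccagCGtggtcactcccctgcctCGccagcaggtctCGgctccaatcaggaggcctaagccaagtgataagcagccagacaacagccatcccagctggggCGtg
PROZ: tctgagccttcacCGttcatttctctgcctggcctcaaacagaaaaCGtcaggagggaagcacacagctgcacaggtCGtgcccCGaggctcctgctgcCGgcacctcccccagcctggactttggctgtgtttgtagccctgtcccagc
PROC: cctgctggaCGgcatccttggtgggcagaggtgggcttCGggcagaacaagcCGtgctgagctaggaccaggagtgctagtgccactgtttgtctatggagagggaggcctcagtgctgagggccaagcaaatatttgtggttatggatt
C4BPB: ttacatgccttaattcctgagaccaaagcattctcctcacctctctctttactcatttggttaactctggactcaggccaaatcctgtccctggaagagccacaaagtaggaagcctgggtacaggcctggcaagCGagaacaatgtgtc

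Over the window from 250 bases before to 50 after each start, 33 of the 43 genes had a RefSeq entry, with 46 windows in all. These held a median of 5 CpG, beside 14 over all 35116 promoter windows of that length, and 58.7% of them held 5 or fewer, beside 33.7%. A2M, CLU and C1S were not matched. The windows cover 5 of the 7 genes that rose, with 1, 2 and 2 CpG at the starts of C4BPB, 4 in TFPI, 5 in VTN, 7 in CFB and 19 in CD55. They cover 2 of the 3 that fell, with 6 CpG in F7 and 8 and 4 at the starts of PROC. The upstream start of C2 had the most (40 CpG), then that of C5 (33 CpG), CD46 (25 CpG in each of its windows) and CD59 (22 CpG at its richest start). Windows with the HNF1 core GTTAAT on either strand made up 21.7% of the 46, beside 6.88% of all windows. The HNF4 motif CAAAGTCCA was in the windows of F10 and PROZ, 4.35% of the 46 beside 0.384% of all, and not in that of F7. Only this exact string was searched for, so its absence does not show that F7 lacks an HNF4 site. The STAT motif TTCNNNGAA was in 28.3%, beside 7.66%; the C/EBP palindrome TTGCGCAA was in 0 of 46 windows, beside 0.151% of all; and TATAAA was in 4.35%, beside 11.5%. The shares count windows, and those of a gene can overlap, as for C4BPB, CD59 and PLG, so a single site can count more than once. They were not adjusted for the base composition of the windows. Such a match describes the letters in the window, and DNA methylation and factor binding were not measured.

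The levels of the genes spanned nearly the whole range of expressed genes. In the controls the broad protease inhibitor A2M was highest at 427 ± 54.8 FPKM, above 99.6% of tested genes. C3, the centre of the complement cascade, followed at 300.04 ± 28.7 FPKM, then the plasmin inhibitor SERPINF2 at 147 ± 14.6, prothrombin (F2) at 122 ± 9.65 and heparin cofactor II (SERPIND1) at 104 ± 11.5 FPKM. A2M and C3 did not overlap in the control libraries, nor did C3 and SERPINF2, whereas F2 (111 to 135 FPKM) overlapped with its neighbours on both sides. Lowest of the tested genes were CFB at 1.06 ± 0.269 FPKM, KNG1, the kininogen that yields bradykinin, at 1.29 ± 0.0772 FPKM, and C8B at 1.72 ± 0.177 FPKM. The contact factor F12 was at 1.94 ± 0.211 FPKM. Of the exon bases of F12, 14.4% also lie in exons of GRK6 on the opposite strand, which had a mean of 9.73 FPKM, and no step of the library protocol is said to keep strand. The reads of the 2 genes cannot be told apart there.

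**Figure D2:**
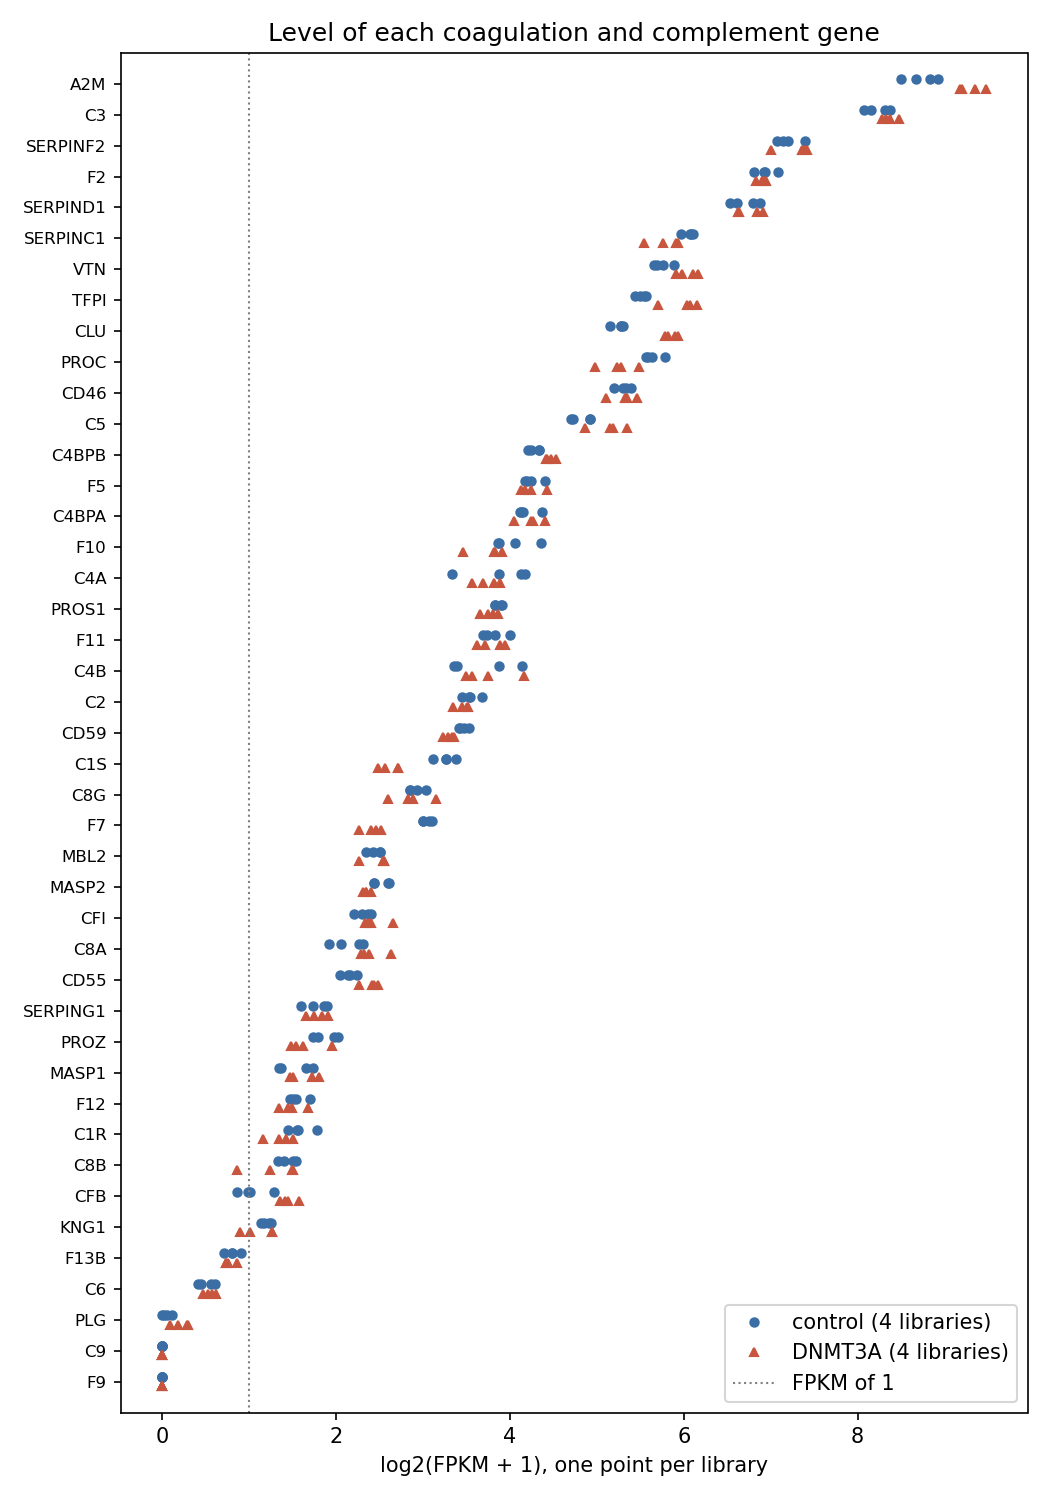
Level of each of the 43 genes, as log2(FPKM + 1) on the x axis, with 1 point per library (circles control, triangles DNMT3A; 4 libraries each). A2M is at the top above 360 FPKM in every library, and F9 and C9 are at 0 in all 8.

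Under the filter were F9, F13B, PLG, C6 and C9. The haemophilia B factor F9 and the terminal complement component C9 had 0 reads in all 8 libraries, which allows a mean of up to 0.00573 FPKM for F9 and 0.007455 FPKM for C9 (3 reads over all libraries, counting error only). F13B, the carrier subunit of the fibrin cross-linking factor, had 0.641 to 0.866 FPKM across controls and 0.659 to 0.813 FPKM across DNMT3A libraries. C6, a component of the membrane pore, had 0.331 to 0.527 and 0.384 to 0.534 FPKM. Plasminogen (PLG), the zymogen of the clot-dissolving protease, was nearly silent. PLG had 1, 4, 8 and 0 reads in control libraries 1 to 4 and 24, 7, 15 and 26 reads in DNMT3A libraries 1 to 4, so 3 DNMT3A libraries were above every control. Without the filter limma gave a log2 fold change of 0.17 (adjusted p = 0.123 over all genes), which did not pass the threshold.

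Among the coagulation zymogens and cofactors 1 of 7 tested genes passed the test, F7, and 6 did not (14.3% called, beside 20.6% of all tested genes). Here and below, no difference between role groups was tested, and each group holds few genes. Factor VII, encoded by F7 (ENSG00000057593, hg38 chromosome 13, 113105788 to 113120681, plus strand), starts clotting when it meets tissue factor. F7 was 7.36, 6.996, 7.008 and 7.57 FPKM in control libraries 1 to 4 and 4.498, 3.81, 4.29 and 4.71 FPKM in DNMT3A libraries 1 to 4. Every DNMT3A library was below every control, and the spread within each group was small. The log2 fold change was -0.63 (SE 0.065, limma adjusted p = 0.000317, exact permutation p = 0.0286, the lowest possible with 4 libraries a group), a ratio of mean FPKM of 0.598. The prothrombin gene F2 (log2 -0.04), the cofactor F5 (log2 -0.01), F11 (log2 -0.02), F12 (log2 -0.06) and KNG1 (log2 -0.09) had 95% intervals from -0.32 to 0.18 in all, so changes as large as that of F7 lay outside their intervals. The signs of F2, F5, F11, F12 and KNG1 each turned under at least 1 alternative setting.

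F10 and PROZ lie downstream of F7, with KARSP2 and AL137002.2 starting between them. Factor X, encoded by F10, is the enzyme that activates prothrombin, and protein Z, encoded by PROZ, is a cofactor for the inhibition of factor X. F10 was 19.5, 13.6, 13.7 and 15.6 FPKM in control libraries 1 to 4 and 14.1, 13.2, 13.1 and 9.99 FPKM in DNMT3A libraries 1 to 4. The groups overlapped, with control library 1 high and DNMT3A library 4 low, and the log2 fold change of -0.28 did not pass the test (limma adjusted p = 0.143). PROZ was 2.31 to 3.07 FPKM across controls and 1.79 to 2.87 FPKM across DNMT3A libraries, with a log2 of -0.23 (limma adjusted p = 0.178). The log2 ratio of F7 to F10 was -0.997 ± 0.200 across controls and -1.34 ± 0.272 in the DNMT3A libraries (SD, n = 4 per group). That difference of -0.35 did not pass (exact permutation p = 0.0857, 0.129 adjusted over the 3 gene pairs compared, which were chosen after their values were seen), so a fall particular to F7 against F10 was not shown.

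Chromosome 13 as a whole was lower in the DNMT3A libraries. Without the members, 9 of its 196 tested genes rose and 65 fell (median log2 fold change -0.15); per DNMT3A library that median, taken against the mean of the controls, was -0.10 to -0.22. F7 was below that level, with 3 of the chromosome's 199 tested genes at a lower log2 fold change, beside 48 for F10 and 72 for PROZ. F7 was taken up because it passed the test, so a place far from the median was built in. Within 2 Mb of F7, 1 of 19 other tested genes rose and 7 fell, and their median was -0.19. The one that rose was the antisense RNA AL137002.2 (log2 0.45, limma adjusted p = 0.0033), which shares 98 exon bases, 4.16%, with F10 on the opposite strand. How far the lower level of the chromosome enters the value of F7 was not tested.

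**Figure D3:**
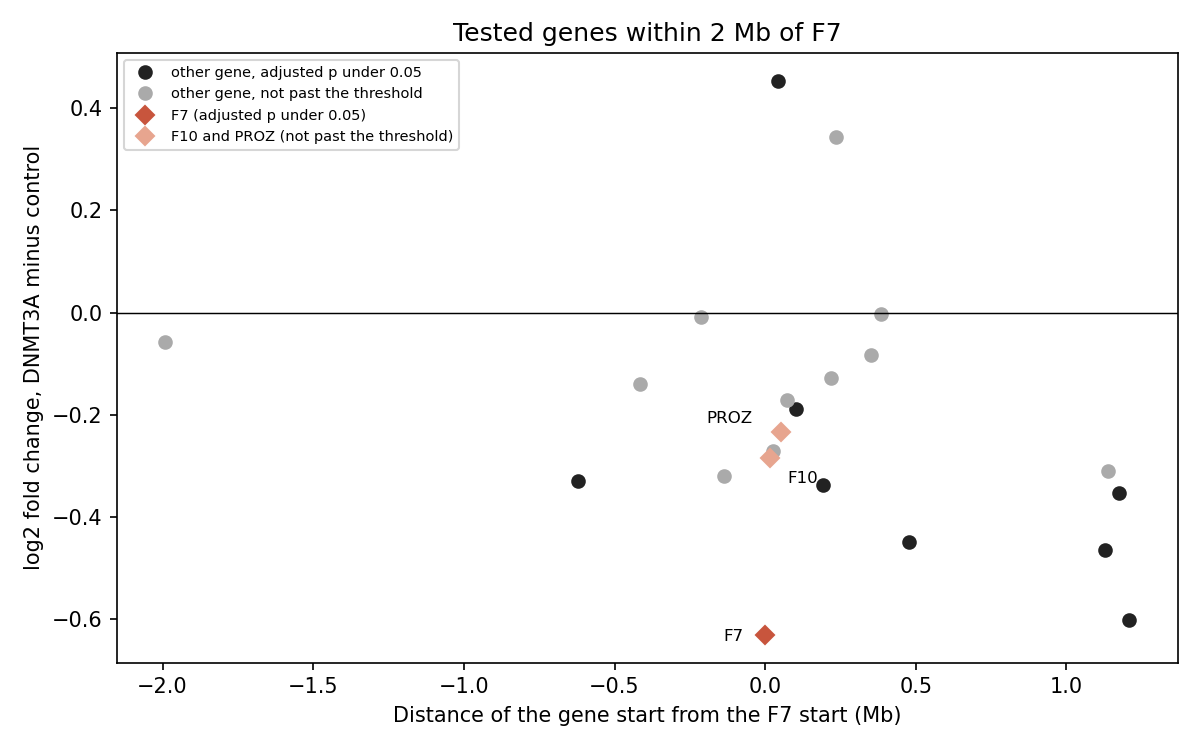
Log2 fold change (y axis, DNMT3A minus control) of tested genes by the distance of their start from the F7 start (x axis, Mb); diamonds are F7, F10 and PROZ and circles other genes. F7 has the lowest point at -0.63, and 8 of the 22 genes are past the threshold and below 0.

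Of the 6 tested anticoagulant genes 1 rose, 1 fell and 4 did not pass (33.3% called, beside 20.6% of all tested genes). Protein C, encoded by PROC (ENSG00000115718, chromosome 2, 127418427 to 127429246, plus strand), is the protease that inactivates factors V and VIII. PROC was 54.0, 48.6, 47.2 and 46.2 FPKM in control libraries 1 to 4 and 36.5, 43.7, 37.8 and 30.5 FPKM in DNMT3A libraries 1 to 4. The DNMT3A libraries were all lower but spread more widely, and the log2 fold change was -0.40 (95% interval -0.62 to -0.18, limma adjusted p = 0.0207). The call was lost when control library 1 (0.0574), control library 2 (0.0507) or DNMT3A library 1 (0.0507) was left out, and without the filter (0.0740). PROS1, encoding protein S, the cofactor of protein C, was 13.2 to 14.0 FPKM across controls and 11.6 to 13.6 FPKM across DNMT3A libraries (log2 -0.09, limma adjusted p = 0.281).

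TFPI (ENSG00000003436, chromosome 2, 187464230 to 187565760, minus strand) encodes the inhibitor of the complex of tissue factor and factor VII. TFPI was 46.4, 42.4, 44.0 and 45.4 FPKM in control libraries 1 to 4 and 64.5, 51.2, 66.3 and 69.9 FPKM in DNMT3A libraries 1 to 4. All DNMT3A libraries were above the controls, library 2 least so. The log2 fold change was 0.48 (SE 0.091, limma adjusted p = 0.00632). F7 and TFPI, the enzyme and its inhibitor, thus moved in opposite directions in the same libraries. They were set side by side after both had passed the test, and no link between their changes was tested. Antithrombin (SERPINC1), the main serpin against thrombin, was 66.3, 67.6, 61.4 and 66.9 FPKM in control libraries 1 to 4 and 60.1, 45.4, 59.2 and 53.2 FPKM in DNMT3A libraries 1 to 4. These groups did not overlap, but the log2 fold change of -0.27 just missed the threshold (limma adjusted p = 0.0552). SERPINC1 passed it without DNMT3A library 1 (0.0466) and with voom on recovered reads (0.0298). SERPIND1, another thrombin serpin, had a log2 of 0.05 (95% interval -0.17 to 0.26).

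The 7 genes whose proteins need vitamin K-dependent carboxylation are F2, F7, F9, F10, PROC, PROS1 and PROZ. Of the 6 tested, F7 and PROC fell and 4 did not pass, beside 10.6% of all tested genes that fell. The 6 log2 fold changes ran from -0.63 to -0.04 with a median of -0.26, and 3 of them belong to F7, F10 and PROZ on chromosome 13, where 65 of 196 other genes fell. The carboxylase GGCX (log2 -0.06) and the vitamin K reductases VKORC1 (log2 -0.20) and VKORC1L1 (log2 -0.04) did not pass the test.

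**Figure D4:**
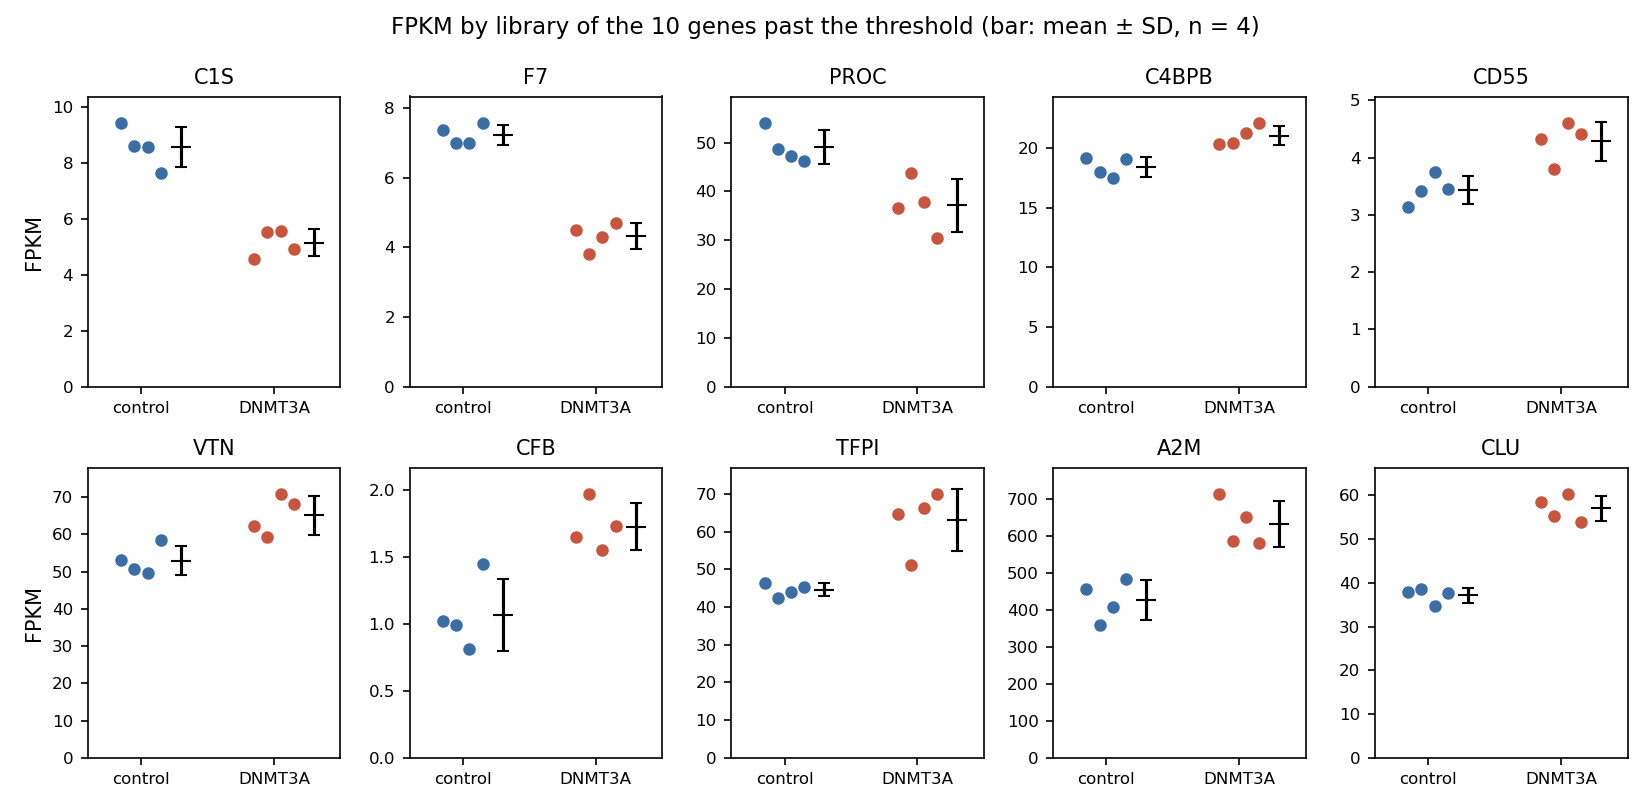
FPKM (y axis, from 0) in each of the 4 control and 4 DNMT3A libraries for the 10 genes past the threshold, with the mean ± SD beside the points. The groups do not overlap in any of the 10 panels. These genes were picked by the test, so that separation is largely built in. Of the 38 tested genes 13 did not overlap (34.2%), beside 25.1% of all tested genes.

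Of the 3 tested genes of fibrinolysis and broad protease inhibition A2M and VTN rose and SERPINF2 did not pass the test (20.6% of all tested genes were called). Alpha-2-macroglobulin, encoded by A2M (ENSG00000175899, chromosome 12, 9067664 to 9116229, minus strand), traps proteases of many kinds. A2M was 456, 360.3, 407 and 484 FPKM in control libraries 1 to 4 and 713, 587, 652 and 579.9 FPKM in DNMT3A libraries 1 to 4, the largest change in FPKM among the 43 genes. The log2 fold change was 0.57 (SE 0.104, limma adjusted p = 0.00553), a ratio of means of 1.48. The 43 genes together summed to 1616 ± 129 FPKM across controls and 1886 ± 125 FPKM across DNMT3A libraries, and A2M gave most of that difference.

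Vitronectin, encoded by VTN, is an adhesive plasma glycoprotein that also blocks the complement pore. VTN was 53.1, 50.7, 49.5 and 58.4 FPKM in control libraries 1 to 4 and 62.3, 59.3, 70.8 and 68.1 FPKM in DNMT3A libraries 1 to 4. The highest control lay just under the lowest DNMT3A library, and the log2 fold change was 0.29 (SE 0.074, limma adjusted p = 0.0223). The call was lost when control library 2 (0.0644), control library 3 (0.0705) or DNMT3A library 3 (0.0660) was left out, and without the filter (0.0623). VTN shares 13.6% of its exon bases with AC002094.3 on the same strand, listed at 0, so the level of VTN depends on how such reads were counted. SERPINF2 was 133 to 167 FPKM across controls and 127 to 169.7 FPKM across DNMT3A libraries (log2 0.09, limma adjusted p = 0.574).

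In the classical and lectin pathways of complement 1 of 8 tested genes fell, C1S, and 7 did not pass (12.5% called, beside 20.6% of all tested genes). C1S (ENSG00000182326, chromosome 12, 6988259 to 7071032, plus strand) encodes the protease of the first complement complex that cleaves C4 and C2. C1S was 9.43, 8.61, 8.57 and 7.66 FPKM in control libraries 1 to 4 and 4.58, 5.53, 5.57 and 4.93 FPKM in DNMT3A libraries 1 to 4. The groups were well apart, and the log2 fold change was -0.64 (SE 0.077, limma adjusted p = 0.000771), a ratio of means of 0.601. C1R, its activating partner and neighbour, was 1.96, 1.73, 2.44 and 1.93 FPKM in control libraries 1 to 4 and 1.54, 1.68, 1.84 and 1.23 FPKM in DNMT3A libraries 1 to 4. These overlapped in the range from 1.73 to 1.84 FPKM, and the log2 of -0.23 did not pass (limma adjusted p = 0.138). Of the exon bases of C1R 11.4% are shared with C1RL on the same strand, so its level is uncertain. C1S shares 3.54% of its exon bases with EMG1 on the same strand, which had a mean of 8.87 FPKM. The log2 ratio of C1S to C1R went from 1.67 ± 0.175 to 1.26 ± 0.117 (SD, n = 4 per group), with every DNMT3A library below every control. The exact permutation p of 0.0286 was the lowest possible with 4 libraries a group. Adjusted over the 3 pairs it was 0.0857, which did not pass. With these group sizes it could pass only if another pair also reached the lowest p, so the adjusted value cannot decide on this pair.

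A2M and C1S lie on the short arm of chromosome 12 and moved in opposite directions. Of 21 other tested genes within 2 Mb of A2M 3 rose and 1 fell, with a median log2 of 0.07. Around C1S 2 of 40 rose and 3 fell (median -0.02). A2M itself was at 0.57 and C1S at -0.64. Both were taken up because they passed the test, so a value far from these medians was built in. Whether the neighbours share in either change was not tested.

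The genes C4A and C4B are near-identical copies of the fourth complement component, and the authors' counting could split their reads between them, so their separate values are uncertain. C4A was 16.5, 9.10, 17.0 and 13.7 FPKM in control libraries 1 to 4, while C4B was 9.48, 9.25, 13.7 and 16.6 FPKM. The share of C4A in the sum ran from 45.1% to 63.5% among the controls and from 45.0% to 53.6% among the DNMT3A libraries. Summed, C4A and C4B gave 26.0, 18.4, 30.7 and 30.3 FPKM in control libraries 1 to 4 and 22.2, 21.6, 25.5 and 30.7 FPKM in DNMT3A libraries 1 to 4. The controls alone spanned nearly all of these values, and the difference of the sum was a log2 of -0.06 (exact permutation p = 0.8286). Its sign turned when control library 3 (0.02), control library 4 (0.02) or DNMT3A library 2 (0.005) was left out, and it was -0.21 without control library 2.

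MASP2, the lectin pathway protease, was 4.40, 4.41, 5.10 and 5.06 FPKM in control libraries 1 to 4 and 4.08, 4.29, 3.95 and 4.07 FPKM in DNMT3A libraries 1 to 4. Its groups did not overlap, and its log2 fold change of -0.17 did not pass (limma adjusted p = 0.0868); it passed with array weights (0.0173). C2 (log2 -0.10), the lectin MBL2 (log2 0.03) and MASP1 (log2 0.10) had overlapping groups.

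Of the 2 central and alternative pathway genes CFB rose and C3 did not pass (20.6% of all tested genes were called). Factor B, encoded by CFB (ENSG00000243649, chromosome 6, 31945650 to 31952084, plus strand), supplies the protease of the alternative convertase. CFB was 1.02, 0.988, 0.809 and 1.44 FPKM in control libraries 1 to 4 and 1.65, 1.97, 1.55 and 1.73 FPKM in DNMT3A libraries 1 to 4, from 64 to 127 reads per control library and 135 to 180 per DNMT3A library. No control reached the lowest DNMT3A library. The log2 fold change was 0.41 (SE 0.104, limma adjusted p = 0.0233), and 0.67 with a pseudocount of 0.1 and 0.73 with voom on recovered reads, since the pseudocount of 1 is close to the level itself. The call was lost when control library 1 (0.0554), 2 (0.0613), 3 (0.0660) or DNMT3A library 2 (0.0508) was left out, and without the filter (0.0795). Of the exon bases of CFB 45.0% and of C2 32.9% also belong to the annotated readthrough gene AL645922.1, listed at 0, so the levels of CFB and C2 depend on how such reads were counted. C3 was 316, 269, 283 and 331 FPKM in control libraries 1 to 4 and 356, 319, 329.7 and 309 FPKM in DNMT3A libraries 1 to 4, with overlapping groups and a log2 of 0.13 (limma adjusted p = 0.262).

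In the terminal pathway 0 of 4 tested genes passed the test by limma, beside 20.6% of all tested genes, with 2 at an unadjusted p under 0.05. C5, which starts the assembly of the pore, was 29.3, 24.9, 25.4 and 29.4 FPKM in control libraries 1 to 4 and 39.5, 28.1, 35.4 and 34.6 FPKM in DNMT3A libraries 1 to 4. DNMT3A library 2 fell within the control range, and the others lay above it. The log2 of 0.32 was at the threshold (limma adjusted p = 0.0515). C5 passed it without DNMT3A library 2 (0.0102) and with median-ratio scaling (0.0432), quantile normalization (0.0376), array weights (0.00505) and voom (0.00854). C8A, 1 chain of the eighth component, had a log2 of 0.26 (limma adjusted p = 0.110) and passed with array weights (0.0143). C8B (log2 -0.17) and C8G (log2 -0.05) did not pass. No difference between the C8 chains was tested.

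Of 5 soluble complement regulators CLU and C4BPB rose and SERPING1, CFI and C4BPA did not pass (40.0% called, beside 20.6% of all tested genes). Clusterin, encoded by CLU (ENSG00000120885, chromosome 8, 27596917 to 27615031, minus strand), is a secreted chaperone that also keeps the complement pore from inserting. CLU was 37.9, 38.5, 34.6 and 37.7 FPKM in control libraries 1 to 4 and 58.6, 55.3, 60.3 and 54.0 FPKM in DNMT3A libraries 1 to 4. The gap between the groups was wide against the spread within them. The log2 fold change was 0.60 (SE 0.058, limma adjusted p = 0.000213), a ratio of means of 1.53. Of 17 other tested genes within 2 Mb of CLU 5 rose and 0 fell, with a median log2 of 0.14.

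The C4b-binding protein, which helps factor I (CFI) to destroy C4b, is built from chains encoded by the neighbouring genes C4BPA and C4BPB. C4BPB was 19.2, 18.0, 17.5 and 19.1 FPKM in control libraries 1 to 4 and 20.4, 20.5, 21.3 and 22.1 FPKM in DNMT3A libraries 1 to 4. The rise was small, with a log2 of 0.18 (SE 0.054, limma adjusted p = 0.0400), and the call was lost without any of control libraries 1 to 4 (0.0545 to 0.121) or DNMT3A library 1 (0.0604), 3 (0.0994) or 4 (0.0722), and without the filter (0.0523). C4BPA was 16.3 to 19.6 FPKM across controls and 15.6 to 20.1 FPKM across DNMT3A libraries (log2 0.05). The log2 ratio of C4BPB to C4BPA was 0.09 ± 0.102 across controls and 0.22 ± 0.135 in the DNMT3A libraries, a difference that did not pass (exact permutation p = 0.200, also 0.200 adjusted over the 3 pairs). SERPING1, the inhibitor of C1r and C1s, was 2.02 to 2.71 FPKM across controls and 2.16 to 2.73 FPKM across DNMT3A libraries (log2 0.02).

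Of the 3 membrane regulators that protect cells from complement CD55 rose and CD46 and CD59 did not pass (33.3% called, beside 20.6% of all tested genes). CD55, which takes apart the C3 convertases, was 3.13, 3.41, 3.74 and 3.45 FPKM in control libraries 1 to 4 and 4.32, 3.80, 4.61 and 4.41 FPKM in DNMT3A libraries 1 to 4. Control library 3 and DNMT3A library 2 nearly met. The log2 fold change was 0.25 (SE 0.070, limma adjusted p = 0.0317), and the call was lost when control library 1 (0.0800), 2 (0.0732), 4 (0.0604) or DNMT3A library 1 (0.0714), 3 (0.0906), 4 (0.0576) was left out, and without the filter (0.0780). CD59, which blocks the addition of C9, was 10.1, 10.6, 9.72 and 9.64 FPKM in control libraries 1 to 4 and 9.25, 8.40, 8.75 and 9.08 FPKM in DNMT3A libraries 1 to 4. The groups did not overlap, yet the log2 of -0.16 did not pass (limma adjusted p = 0.0660); it passed with array weights (0.0302). CD46, the membrane cofactor for factor I, was the most abundant of the 3 at 38.6 ± 2.22 and 38.8 ± 3.95 FPKM (log2 0.00, 95% interval -0.18 to 0.18).

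A further list held 58 genes of receptors, activators, processing enzymes and pattern recognition molecules of the same systems. The filter left 25 to test: 3 rose, 3 fell and 19 missed the threshold, with a median log2 of -0.06; the called share of 24.0% compares with 20.6% of all tested genes. Another 33 were under the filter, 13 of them at 0 in all 8 libraries, among them the C1q chains C1QA, C1QB and C1QC. The subunits of carboxypeptidase N, the plasma enzyme that inactivates anaphylatoxins, moved in opposite directions. Its catalytic subunit CPN1 rose from 4.35 ± 0.527 to 7.61 ± 1.15 FPKM (log2 0.68, limma adjusted p = 0.002665). Its stabilising subunit CPN2 fell from 41.4 ± 3.52 to 30.8 ± 1.38 FPKM (log2 -0.41, limma adjusted p = 0.00371).

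Of the protease inhibitors on that list SERPINA5, the protein C inhibitor, rose from 76.2 ± 9.28 to 98.8 ± 5.56 FPKM (log2 0.38, limma adjusted p = 0.0152), and SERPINE2, a cell-bound thrombin inhibitor, fell from 4.44 ± 0.207 to 3.22 ± 0.0679 FPKM (log2 -0.37, limma adjusted p = 0.00223). F2RL1, a protease-activated receptor, rose with a log2 of 0.23 (limma adjusted p = 0.0317), and HPN, the membrane protease hepsin, fell with a log2 of -0.25 (limma adjusted p = 0.0442). HPN lost its call without any 1 of control libraries 1, 2 and 4 or DNMT3A libraries 1, 2 and 3 (0.0754 to 0.105), without the filter (0.110), and with array weights (0.0541), median-ratio scaling (0.0508) and quantile normalization (0.0741). F2RL1 lost it without any 1 of control libraries 1, 2 and 4 or DNMT3A libraries 2, 3 and 4 (0.0542 to 0.0825) and without the filter (0.0651), and SERPINA5 without the filter (0.0534). Among the most abundant of the list, CALR (log2 0.06), C1QBP (log2 -0.18) and ANXA5 (log2 -0.12) did not pass the test.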

How the data were processed

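RNA was captured on poly-T beads from 8 samples of HepG2 cells, 4 per group; sample titles gave the groups. Alignment used HISAT2 2.0.5 with hg38 (submitters' processing notes), and how reads were counted is not stated in the sources used here. The authors deposited FPKM, a unit taken from the name of their table. The members and gene lists were chosen with earlier results of these data known. FPKM times gene length was a whole multiple of one step per library in 100% of cases (within 0.01 of a read), which let reads be recovered.

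Genes whose mean FPKM reached 1 (11620) were compared as log2(FPKM + 1) by limma 3.58.1 in R 4.3.3 with an intensity trend, Benjamini-Hochberg adjustment and a threshold of 0.05; the procedure was tested on simulated data. Single quantities had an exact two-sided permutation test (scipy 1.17.1, 70 assignments). Every member could be named; so could, of the further pathway genes, those past the threshold and the 4 with the highest mean, while GGCX, VKORC1, VKORC1L1, C1QA, C1QB and C1QC were added after their values were seen; some genes of that list are not reported here. Exon overlaps used GENCODE release 29, whose coordinates and chromosome names matched 58690 of 58735 genes, and promoters RefSeq on GRCh38.p14. The alternatives varied the pseudocount (0.1), the filter (none), scaling (median-ratio, quantile), array weights, a replicate block, voom on recovered reads, and each library left out. Ratios of 3 gene pairs were added after values were seen.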

Additional observations from a re-analysis of the deposited data

Results flagged for a closer look

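In 3 of the 82 sets of 4 values examined (41 genes with reads, in each group) 1 library stood apart from the other 3 of its group, where chance gives about 1 in 20. SERPINF2 was 127 FPKM in DNMT3A library 4 and 164 to 169.7 FPKM in the other DNMT3A libraries. MBL2 was 3.81 FPKM in DNMT3A library 2 and 4.80 to 4.86 FPKM in the others. C4BPA was 19.6 FPKM in control library 1 and 16.3 to 16.8 FPKM in the other controls. None of these genes passed the test, in the main comparison or under any of the 15 alternatives.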

How the results depend on the processing

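The 5 genes F7, C1S, TFPI, A2M and CLU stayed past the threshold in their direction under all 15 alternatives. The number of the 43 genes past the threshold was 10, and 5 without a filter and 5 to 10 when 1 library was left out (6 without control library 1, 5 without control library 2). Those that rose numbered 7, and 3 without a filter and 3 to 7 without 1 library (3 without control library 2, and 4 without either of control libraries 1 and 3 and also without DNMT3A library 3); those that fell numbered 3, and 5 with array weights and 2 to 3 without 1 library. Over all genes 2389 were called, and 3756 with array weights and 1491 to 2454 without 1 library (1540 without control library 2, 1491 without control library 3). Of the further pathway genes 6 were called, and 3 without a filter and 4 to 6 without 1 library. The summed C4A and C4B log2 difference ran from -0.214 to 0.023 without 1 library; with 1 library left out the smallest exact p was 0.0571, so no pair ratio could pass. Filter and array weights do not apply to that sum.

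No called gene turned its sign. Genes near 0 did: with array weights F2 (0.002), F5 (0.01), F11 (0.082), F12 (0.052), KNG1 (0.007), C4B (-0.026) and C8G (0.089); with quantile normalization F2 (0.014), F5 (0.026) and SERPING1 (-0.011); with median-ratio scaling F5 (0.002); and with voom F5 (0.012). Without 1 library the log2 value ran from -0.078 to 0.013 for F2, -0.07 to 0.042 for F5, -0.073 to 0.041 for F11, -0.009 to 0.106 for SERPIND1, -0.089 to 0.201 for C4B, -0.002 to 0.101 for MBL2, -0.145 to 0.039 for C8G, -0.043 to 0.058 for SERPING1, -0.003 to 0.113 for C4BPA, -0.048 to 0.069 for CD46 and -0.002 to 0.121 for CALR. The cause was not tested.

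The samples share only replicate numbers: the correlation of same-numbered deviations was 0.16, -0.08, -0.03 and 0.10. With the replicate number as a block 9 of the 43 genes were called and 8 of the 10 calls were shared, C4BPB (limma adjusted p = 0.0896) and CD55 (0.0528) being lost and C5 (0.0271) gained; of the further genes HPN (0.0612) and F2RL1 (0.0714) were lost; over all genes 1881 were called.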
